A study of Mus musculus with 8 samples.

Results

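Hypoxia and glycolysis genes were followed in mouse retinal organoids after METTL3, which adds the m6A mark (N6-methyladenosine) to messenger RNA, was targeted for degradation. The list names 42 genes: targets of the hypoxia-inducible factors (HIF), regulators of that pathway, and glycolytic enzymes. Members were chosen from textbook HIF and glycolysis genes and, for Adm, Bhlhe40, Ppp1r3c, Ddit4 and Ier3, from their values in these data, where they were lower at 1 h and higher at 24 h. The values at 1 and 24 h are therefore a description of those 5 genes and support nothing about them. The other members too were listed with earlier results of these data known. Of the 42 genes, 40 have a locus under their own name in each table, out of 35494 loci at 1 h and of 35541 both at 8 and at 24 h. Hif1a and Gpi1 occur only in loci merged with other genes and are given separately.

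All samples come from the line Rx:GFP FKBP12F36V-HA KI, with the degron tag FKBP12F36V-HA at the C-terminal end of METTL3 on both alleles, and all, controls included, were differentiated with AGN at 0.1 µM. The treated groups received dTAG-13, a molecule that directs the tagged protein to degradation, at 125 nM for 1, 8 or 24 h, and the 0 h group is labelled as untreated. Each of the 4 groups has 2 samples, which had separate library preparations, per the labels. Treatment was given at day 5 and day 6, and all cells were collected together. The labels do not say whether the 2 samples are separate cultures, whether 0 h samples received solvent or whether the line is a single clone, and METTL3 protein was not measured here.

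HIF transcription factors are made continuously and destroyed when oxygen is present. Prolyl hydroxylases of the EGLN family mark the alpha subunit for the VHL ubiquitin ligase, and when oxygen falls the subunit accumulates, pairs with ARNT and binds DNA at a core of ACGTG or GCGTG. Its targets raise glucose uptake and glycolysis, divert pyruvate to lactate, promote vessel growth and restrain mitochondrial activity and growth. Proliferating progenitor cells, those of the embryonic retina among them, use glycolysis heavily.

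The deposited tables give 1 value for each gene and condition, in FPKM (a read-fragment count corrected for transcript length and library depth), combined over the 2 samples of a group. The spread between samples is not visible, no test across samples could be made, and each value is given with the lower and upper bound that the authors deposited with it. A locus was tested where it reached 1 FPKM in at least 1 of the conditions. It was called lower or higher where the ratio to 0 h of the same table was at least 1.5-fold, with 0.1 FPKM added to both values, and the deposited bounds did not overlap. Every one of the 40 genes passed the filter through its 0 h value alone. Estimated counts summed to between 31361518 and 32562075 for each condition and table. The smallest estimated count of any of the 40 genes was 23.2, for Adm at 1 h. The loci of 7 of the genes at 1 h, and of 8 at 8 and 24 h, overlap another expressed locus, so their estimates are less certain. They are Ddit4, Pfkp, Aldoa, Tpi1, Ankrd37, Fam162a, Car9 and, at 8 and 24 h, Bnip3. The labelled tissue was checked against cell type markers. All 7 retinal progenitor markers were present at 0 h, from 18.2 to 143 FPKM, and so were all 6 markers of pluripotent cells, from 2.27 to 200.4 FPKM. None of the 4 neuron markers with a locus reached 1 FPKM. In bulk RNA, fewer cells of a type and less RNA per cell cannot be told apart.

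Before treatment these genes spanned about 3 orders of magnitude of FPKM, and the 7 highest were 5 glycolytic enzymes and both glucose transporters. Values below are from the 0 h column of the 24 h table. Pkm, the muscle-type pyruvate kinase gene that also serves proliferating cells, had 1755 FPKM (bounds 1406 to 2103), above 99.7% of the loci tested. Ldha, which turns pyruvate into lactate, had 1039 FPKM (839 to 1239) and Aldoa, an aldolase, 1017 (823 to 1210). The bounds of Ldha and Aldoa overlap, and Pkm was apart from both. Tpi1 (611), Pgk1 (441), the glucose transporters Slc2a1 (328) and Slc2a3 (273) followed as a series in which neighbours overlap. Other enzymes were lower, with 34.2 FPKM for Hk2, 23.6 for Pfkp, 19.7 for Hk1 and 6.78 for Aldoc. The median of the 40 genes was 42.9 FPKM, against 12.5 for all 13910 loci tested. Altogether 13 genes had at least 100 FPKM and 10 had under 10. The lowest was Car9, a membrane carbonic anhydrase and a classical hypoxia marker, at 1.45 FPKM with bounds from 0 to 2.99. Adm, which encodes the vasodilator peptide adrenomedullin, had 2.01 FPKM (1.28 to 2.75). Of the 39 neighbouring pairs in this order, 4 had bounds that did not overlap.

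**Figure D1:**
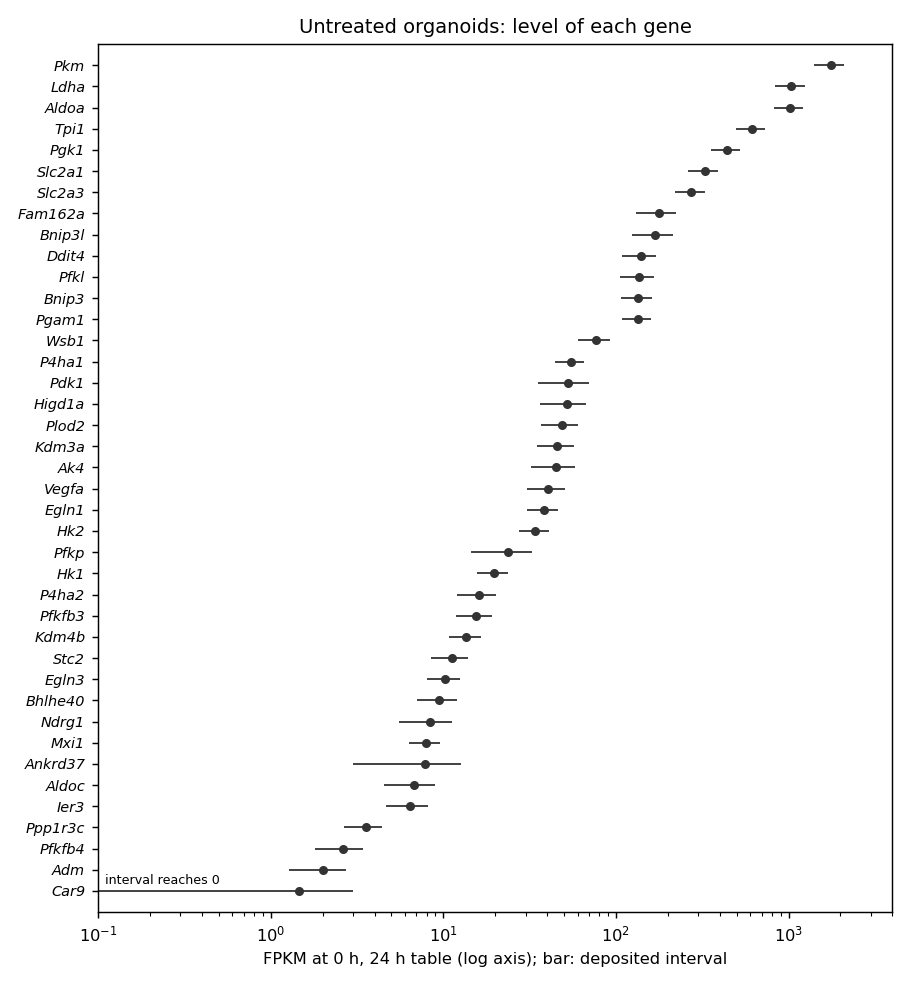
FPKM of the 40 genes in untreated organoids, on a log axis, with the deposited bounds as bars (0 h column of the 24 h table). Glycolytic enzymes and glucose transporters take the 7 highest places, from Pkm at 1755 FPKM down to Slc2a3 at 273 FPKM, and Car9 the lowest at 1.45.

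At 1 h of dTAG-13 the list stood below all loci. The median log2 ratio was -0.23 (quartiles -0.55 and -0.09), against 0.01 over the 13690 loci tested, and 36 of 40 genes were below 0, against 48.4% of all loci. Called lower were 7 genes: Adm, Ppp1r3c, Bhlhe40, Ier3, Ddit4, Stc2 and Pfkfb3. None of the 40 was called higher. Over all loci 0.285% were called lower, 0.117% higher and 0.402% in either direction, and since the list was composed in part on this contrast nothing is read from these differences. Across all genes the 1 h ratio also fell with transcript length, with a Spearman's rho of -0.25 over 10950 genes that are not independent of one another. Among 39 of the listed genes rho was -0.009. The median length of these genes was 2786 bases, against 3052 for all genes. The part of length in the 1 h values was not tested.

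At 8 h the list lay with the other loci. Its median was -0.04, against 0.01 over 13825 loci, and 23 of the 40 genes were below 0. A single gene, Ppp1r3c, was called, higher, where 3.49% of all loci were called higher, 0.94% lower and 4.43% in either direction. At 24 h the median was 0.17, against 0.02 over 13910 loci, and 26 of the 40 genes were above 0, against 52.1% of all loci. Called higher were 6 genes, Ppp1r3c, Adm, Bhlhe40, Ier3, Slc2a3 and Ddit4, and 0 were called lower. Of all loci 3.83% were called higher, 1.65% lower and 5.48% in either direction. The list was composed in part on the 24 h contrast too, so nothing is read from these differences either. The 3 comparisons use the same 0 h libraries, so the values of a gene at different times are not independent.

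**Figure D2:**
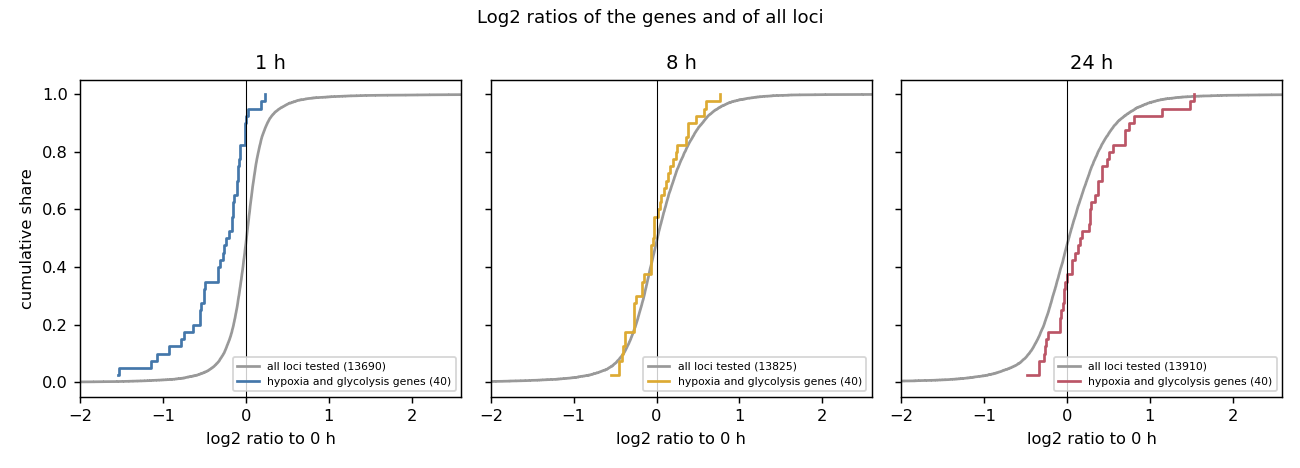
Cumulative share of log2 ratios at 1, 8 and 24 h for the 40 genes (colour) and all loci tested (grey), with a vertical line at 0. At 1 h the coloured curve lies to the left of the grey one, with a median of -0.23, at 8 h the curves run together, and at 24 h it lies to the right, with a median of 0.17.

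**Figure D3:**
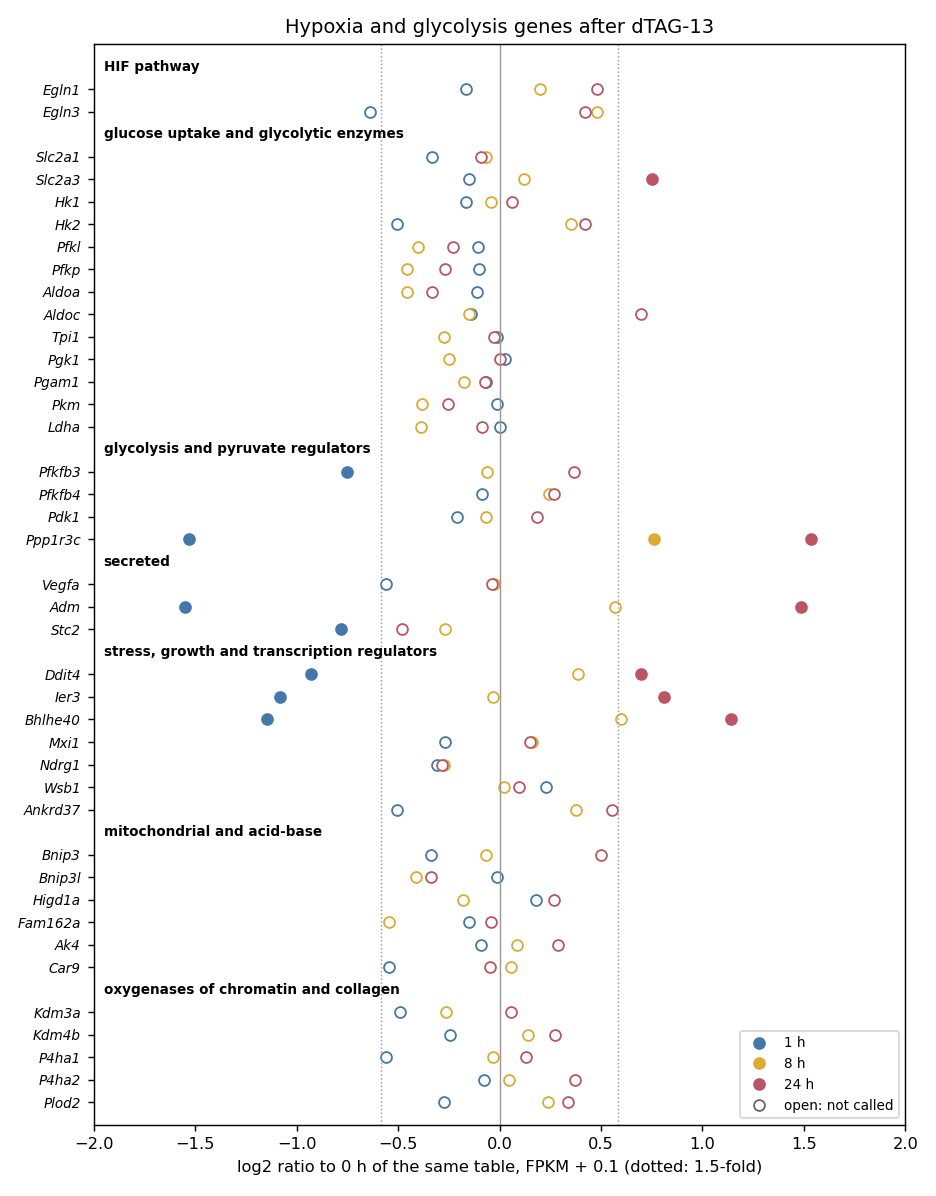
Log2 ratio to 0 h of each gene at 1 h (blue), 8 h (yellow) and 24 h (red), by role; filled points are called and dotted lines mark 1.5-fold. Called values run from -1.55 for Adm at 1 h to 1.53 for Ppp1r3c at 24 h, and since 5 of the 8 called genes were listed for their values at these times, the spread of calls over roles is no result.

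Among the genes of the HIF pathway itself, Egln1 and Egln3 encode the oxygen-sensing prolyl hydroxylases, and both are HIF targets as well. Egln3 had 10.1 FPKM (7.84 to 12.4) at 0 h and 6.49 (4.93 to 8.04) at 1 h, a log2 ratio of -0.64. This passes 1.5-fold, but the bounds of Egln3 overlap by a narrow margin, so it was not called. Stc2, called with the narrowest gap on the log2 scale, had bounds from 8.25 to 13.9 untreated and from 4.75 to 8.03 after 1 h. Egln3 then had a ratio of 0.48 at 8 h and of 0.42 at 24 h, and was not called. Egln1 had ratios of -0.17, 0.20 and 0.48 at 1, 8 and 24 h and was not called. Its highest level was 53.5 FPKM (43.0 to 64.0) at 24 h against 38.4 (30.7 to 46.1). The locus that holds Hif1a also holds Gm49321 and Snapc1. It had 53.2 FPKM (40.7 to 65.8) at 1 h against 50.0 (38.1 to 62.0), and its ratios were 0.09, -0.13 and -0.22 at the 3 times, none of them called. A change of Hif1a itself cannot be read from a merged locus, and HIF protein was not measured.

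The glucose transporters differed from each other at 24 h. Slc2a3, a high-affinity glucose transporter of neurons and early embryos (chromosome 6, 122727809 to 122801640, minus strand), rose 1.68-fold, from 273 FPKM (219 to 328) to 461 (370 to 551). At 1 h it had 242 FPKM (191 to 294) against 269 (212 to 326), and at 8 h 296 (239 to 354) against 273 (219 to 326), so only the 24 h bounds were apart among the 3 times. Slc2a1, the ubiquitous transporter, had ratios of -0.33, -0.07 and -0.09 at 1, 8 and 24 h, with 328 FPKM (263 to 392) and 308 (247 to 369) in the 24 h table. The difference between the transporters was not tested.

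None of the 11 glycolytic enzymes with a locus of their own was called at any time, which for so few genes is close to the shares of 0.402%, 4.43% and 5.48% over all loci at 1, 8 and 24 h. Their medians at 1, 8 and 24 h were -0.10, -0.27 and -0.07 on the log2 scale, and 10 of 11 were below 0 at 8 h, Hk2 being the exception. The 3 most abundant enzymes, Pkm, Ldha and Aldoa, were among the 5 lowest at 8 h. Aldoa went from 1013 FPKM (822 to 1204) to 739 (599 to 878), a ratio of -0.46, and Pkm from 1749 (1407 to 2090) to 1340 (1080 to 1601), a ratio of -0.38. Ldha went from 1036 (840.4 to 1231) to 792 (642 to 942), a ratio of -0.39. In each case the bounds overlapped. The bounds of Ldha at 8 h allow a log2 ratio between -0.94 and 0.17, a range that includes 0.

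Isoforms of the same step differed in value for hexokinase and aldolase and lay close for phosphofructokinase. None of these isoforms was called at any time, and differences between them were not tested. For hexokinase, which traps glucose in the cell, Hk2 (the inducible form) had ratios of -0.50, 0.35 and 0.42 at 1, 8 and 24 h, while Hk1 (the constitutive form) stayed between -0.17 and 0.06. For phosphofructokinase, the committed step, Pfkl had -0.11, -0.40 and -0.23 and Pfkp -0.10, -0.45 and -0.27. For aldolase, Aldoc, the brain form, went from 6.78 FPKM (4.55 to 9.00) to 11.0 (8.23 to 13.9) at 24 h. Its 24 h ratio of 0.70 exceeds the fold limit, but its bounds overlap, so it was not called. Aldoa at 24 h had a ratio of -0.33. Triosephosphate isomerase (Tpi1), phosphoglycerate kinase (Pgk1) and phosphoglycerate mutase (Pgam1) stayed within -0.07 and 0.03 at 1 and 24 h and had -0.27, -0.25 and -0.18 at 8 h. The locus of Gpi1, the isomerase between hexokinase and phosphofructokinase, is merged with Gm12762 and had ratios of -0.12, -0.16 and 0.12. Glycolytic genes have many processed pseudogenes, and how reads shared with them were assigned is not given in the sources used here.

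Of the 4 genes that steer glycolysis, 2 were called at 1 h, 1 at 8 h and 1 at 24 h. Over all loci the shares called were 0.402%, 4.43% and 5.48%. Because Ppp1r3c was listed for its values in these data, these counts are no result. Ppp1r3c encodes a targeting subunit that brings protein phosphatase to glycogen and favours glycogen storage, and lies on chromosome 19 at 36731731 to 36736653 (minus strand, 2 exons). Its FPKM at 1 h was 1.15 (0.754 to 1.54) against 3.50 (2.58 to 4.42) at 0 h, 2.89-fold lower. At 8 h it was 6.07 (4.72 to 7.42) against 3.53 (2.68 to 4.39), 1.70-fold higher, and at 24 h 10.5 (8.26 to 12.7) against 3.55 (2.68 to 4.42), 2.90-fold higher. Each treated value was thus apart from its 0 h value, and Ppp1r3c was the only one of the 40 genes called at 8 h. The 8 h call ends with a 2-fold limit.

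Pfkfb3 makes fructose 2,6-bisphosphate, the strongest activator of phosphofructokinase (chromosome 2, 11471433 to 11554077, minus strand). It fell 1.68-fold at 1 h, from 15.3 FPKM (11.5 to 19.0) to 9.03 (6.87 to 11.2). At 8 h it had 14.8 (11.7 to 17.9) against 15.4 (11.9 to 19.0), and at 24 h 20.0 (15.8 to 24.2) against 15.5 (11.9 to 19.1), with overlapping bounds at both. Its paralog Pfkfb4 had ratios of -0.09, 0.24 and 0.27. Pdk1, a kinase that inactivates pyruvate dehydrogenase, had -0.21, -0.06 and 0.18. Neither Pfkfb4 nor Pdk1 was called.

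Of the secreted factors, Adm (chromosome 7, 110627661 to 110629820, plus strand) had a 1 h ratio of -1.55, the lowest of the 40 genes with 0.1 FPKM added. It had 0.611 FPKM (0.183 to 1.04) at 1 h against 1.98 (1.20 to 2.76) at 0 h, 2.93-fold lower. At 8 h it had 3.02 (2.08 to 3.97) against 2.01 (1.28 to 2.74), with overlapping bounds, and at 24 h 5.82 (4.29 to 7.35) against 2.01 (1.28 to 2.75), 2.80-fold higher. These levels are low, and the 1 h value rests on 23.2 estimated counts. With 1 FPKM added the 1 h ratio of Adm was -0.89, still called, and that of Ppp1r3c was lower, at -1.07. Stc2, a glycoprotein hormone of the stanniocalcin family (chromosome 11, 31357307 to 31370074, minus strand), fell 1.72-fold at 1 h, from 11.1 FPKM (8.25 to 13.9) to 6.39 (4.75 to 8.03). Unlike Adm it was not called at 24 h, where it had 8.00 FPKM (6.11 to 9.89) against 11.2 (8.51 to 13.9) and the lowest 24 h ratio of the 40 genes, -0.48. At 8 h its ratio was -0.27. Vegfa, the main vessel growth factor under HIF control, had 26.6 FPKM (19.9 to 33.3) against 39.3 (29.5 to 49.0) at 1 h, a ratio of -0.56, and ratios of -0.03 and -0.04 at 8 and 24 h. It was not called.

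The regulators of stress, growth and transcription held 3 of the 7 genes called at 1 h, all 3 of them listed for their values in these data. Bhlhe40 is a transcriptional repressor that also acts on the circadian clock (chromosome 6, 108660629 to 108666925, plus strand). It had 4.18 FPKM (2.12 to 6.23) at 1 h against 9.36 (6.76 to 11.9), 2.21-fold lower. At 8 h the values were 14.4 (10.8 to 18.0) against 9.47 (7.06 to 11.9), past 1.5-fold but with overlapping bounds, and at 24 h 21.1 (15.8 to 26.3) against 9.51 (7.07 to 11.9), a log2 ratio of 1.14. Ddit4 (REDD1) restrains the growth kinase complex mTORC1 (chromosome 10, 59949669 to 59951834, minus strand). It had 72.4 FPKM (52.6 to 92.2) at 1 h against 138 (105 to 170.0), 182 (144 to 219.9) at 8 h against 139 (109 to 170.0), and 227 (181 to 273) at 24 h against 140 (109 to 171). That is 1.90-fold lower at 1 h and 1.62-fold higher at 24 h, with overlapping bounds at 8 h. Its locus in the tables spans the expressed genes Anapc16 and Ascc1, so its estimate is less certain.

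Ier3 is a short immediate early gene linked to cell survival (chromosome 17, 35821684 to 35822923, plus strand, 2 exons). It had 2.94 FPKM (1.87 to 4.01) at 1 h against 6.32 (4.48 to 8.16), 2.11-fold lower, and 11.4 (8.61 to 14.1) at 24 h against 6.42 (4.68 to 8.17), 1.76-fold higher. At 8 h it had 6.26 (4.56 to 7.95) against 6.40 (4.67 to 8.13). Of the 5 genes chosen on these data it was the only one with a ratio below 0 at 8 h, -0.03. The other regulators were not called. Ankrd37, a classical HIF target, had ratios of -0.50, 0.38 and 0.55 with wide bounds (3.01 to 12.6 at 0 h in the 24 h table). Mxi1, which opposes MYC, had -0.27, 0.16 and 0.15, and Ndrg1 had -0.31, -0.27 and -0.28. Wsb1, part of a ubiquitin ligase, had the highest 1 h ratio of the 40 genes, 0.23, and was not called.

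**Figure D4:**
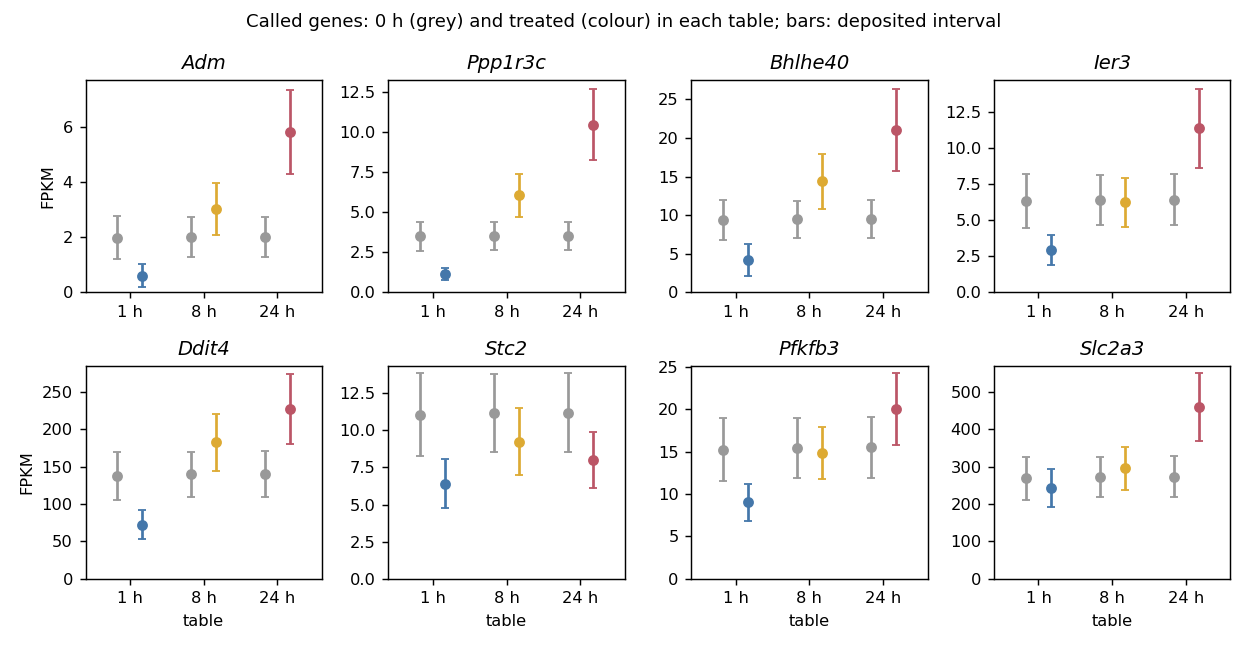
FPKM of the 8 genes called at any time, at 0 h (grey) and after treatment (colour) in each of the 3 tables, with the deposited bounds as bars and all axes starting at 0. Adm, Ppp1r3c, Bhlhe40, Ier3 and Ddit4 lie below their 0 h value at 1 h and above it at 24 h, Stc2 and Pfkfb3 are apart from 0 h at 1 h only, and Slc2a3 at 24 h only.

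None of the mitochondrial and acid-base genes was called. For so few genes this is close to the shares over all loci, 0.402%, 4.43% and 5.48% at 1, 8 and 24 h. Bnip3 and Bnip3l encode mitophagy receptors that remove mitochondria in hypoxic cells. Bnip3 had ratios of -0.34, -0.07 and 0.50, reaching 191 FPKM (153 to 229) at 24 h against 135 (108 to 162), a narrow overlap. Bnip3l had -0.01, -0.41 and -0.34. In the 8 and 24 h tables a further locus also carries the name Bnip3, with a ratio of -2.40 at 8 h and bounds that overlap at both times. Its level was small: the 24 h table gives 5.65 FPKM (0.0801 to 11.2) untreated and 1.36 (0 to 4.54) treated. The more abundant locus was used. Fam162a, a mitochondrial protein induced in hypoxia, had the lowest 8 h ratio of the 40 genes, -0.55, from 177 FPKM (131 to 222) to 121 (94.1 to 148). Higd1a, an assembly factor of the respiratory chain, had 0.18, -0.18 and 0.27, and Ak4, a mitochondrial adenylate kinase, -0.09, 0.09 and 0.29. Car9 was too low to compare: its bounds at 0 h reached 0 in each table.

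The oxygenases that act on chromatin and collagen need oxygen for their reaction and are induced when it is scarce. None of the 5 was called, again close to the shares over all loci (0.402%, 4.43% and 5.48% at 1, 8 and 24 h). At 1 h all 5 were below 0, and P4ha1, a subunit of collagen prolyl hydroxylase, had 36.6 FPKM (29.1 to 44.1) against 54.0 (43.0 to 65.1), a ratio of -0.56. The histone demethylase Kdm3a had -0.49, the collagen lysyl hydroxylase Plod2 -0.27, the demethylase Kdm4b -0.25 and P4ha2 -0.07. At 24 h all were above 0, from 0.06 for Kdm3a to 0.37 for P4ha2. Their medians were -0.27, 0.04 and 0.27 at 1, 8 and 24 h.

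Other genes of the pathway were taken from a list of 75, of which 63, 63 and 65 were tested at 1, 8 and 24 h. At 1 h 2 of 63 were called lower and 0 higher, where 0.402% of all loci were called, and the median ratio was -0.10. Stc1, the paralog of Stc2, had 1.53 FPKM (1.10 to 1.96) against 3.25 (2.46 to 4.05), a ratio of -1.04, and Ccng2, a growth-inhibiting cyclin, 14.8 (11.4 to 18.2) against 28.0 (21.6 to 34.5), a ratio of -0.92. At 8 h 1 of 63 was called higher and 0 lower, with a median of -0.01, where 4.43% of all loci were called. This was Siah2, a ubiquitin ligase that degrades EGLN proteins, with 9.26 FPKM (7.30 to 11.2) against 5.22 (4.03 to 6.41), a ratio of 0.82. At 24 h 4 of 65 were called higher and 0 lower, with a median of 0.09, where 5.48% of all loci were called. At 8 and 24 h these counts are below or near the background and are no result about the list. This list too was chosen with earlier results of these data known, so its 1 h count is a description only. Cited2, which competes with HIF for its coactivator, had a ratio of 0.82, and the lactate exporter Slc16a3 one of 0.75, from 120 FPKM (93.5 to 147) to 202 (158 to 247). The EGF receptor inhibitor Errfi1 had 0.69 and Tigar, which lowers fructose 2,6-bisphosphate, 0.67. Arnt, the partner of HIF, and Vhl and Hif1an, which restrain it, were not called: Arnt had 20.9 FPKM at 0 h and a 24 h ratio of -0.19, Vhl 20.3 and 0.08, and Hif1an 23.3 and -0.09. Gapdh had 1724 FPKM at 0 h with ratios of 0.06, -0.19 and -0.12, in the range of the other enzymes.

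Promoter sequences are printed to show where the HIF core lies in genes that were called and in 1 that was not. The 250 bases before each RefSeq start (GRCm38.p6) were searched for ACGTG and GCGTG on both strands. The motifs overlap where ACGTG lies on both strands, as CACGTG, a site that other bHLH factors such as MYC, CLOCK and BHLHE40 also bind. Capitals mark each match, and a match on the opposite strand reads CACGT or CACGC. Sequences are shown 5′ to 3′ on the strand of the gene. Those of Adm (chr7:110627407-110627656, plus), Ppp1r3c (chr19:36736605-36736854, minus), Ddit4 (chr10:59951771-59952020, minus) and Ier3 (chr17:35821463-35821712, plus) belong to genes lower at 1 h and higher at 24 h, Stc2 (chr11:31370062-31370311, minus) was lower at 1 h only, and Pgk1 (chrX:106186850-106187099, plus), a textbook HIF target, was not called.
Adm: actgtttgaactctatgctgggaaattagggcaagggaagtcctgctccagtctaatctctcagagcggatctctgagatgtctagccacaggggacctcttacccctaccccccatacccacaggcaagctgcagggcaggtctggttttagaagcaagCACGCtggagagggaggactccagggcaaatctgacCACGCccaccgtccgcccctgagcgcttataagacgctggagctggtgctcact
Ppp1r3c: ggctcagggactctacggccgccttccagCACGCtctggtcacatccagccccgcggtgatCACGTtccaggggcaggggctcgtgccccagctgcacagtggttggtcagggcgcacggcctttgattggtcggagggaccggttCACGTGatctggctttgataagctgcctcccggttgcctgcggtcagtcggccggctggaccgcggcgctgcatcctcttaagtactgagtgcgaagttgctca
Ddit4: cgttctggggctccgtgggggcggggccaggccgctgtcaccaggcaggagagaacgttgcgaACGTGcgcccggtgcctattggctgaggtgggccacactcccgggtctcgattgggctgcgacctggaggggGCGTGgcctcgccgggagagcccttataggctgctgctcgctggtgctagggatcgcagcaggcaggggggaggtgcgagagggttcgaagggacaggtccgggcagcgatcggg
Ier3: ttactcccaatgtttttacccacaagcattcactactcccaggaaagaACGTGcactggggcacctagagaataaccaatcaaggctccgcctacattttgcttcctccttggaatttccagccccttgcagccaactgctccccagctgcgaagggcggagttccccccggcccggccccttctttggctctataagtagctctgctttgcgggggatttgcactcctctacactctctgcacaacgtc
Stc2: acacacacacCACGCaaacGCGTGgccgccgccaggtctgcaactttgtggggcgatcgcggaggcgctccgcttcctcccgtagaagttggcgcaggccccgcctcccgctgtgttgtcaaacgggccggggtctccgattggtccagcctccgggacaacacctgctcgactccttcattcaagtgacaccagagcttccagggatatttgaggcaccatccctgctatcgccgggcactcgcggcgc
Pgk1: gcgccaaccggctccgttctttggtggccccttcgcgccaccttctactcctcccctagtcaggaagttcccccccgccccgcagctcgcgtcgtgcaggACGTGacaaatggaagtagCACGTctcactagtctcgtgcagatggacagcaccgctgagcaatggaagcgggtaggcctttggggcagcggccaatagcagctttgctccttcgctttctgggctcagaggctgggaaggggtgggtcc

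Each of the 6 windows holds at least 1 match. Adm has 2 matches of GCGTG on the opposite strand, the nearer from 54 to 50 bases before the start. Ppp1r3c has 4 matches, of which an overlapping pair forms CACGTG from 104 to 99 bases before the start. Ddit4 and Pgk1 have 2 each, and Pgk1, which was not called, has 2 of ACGTG. Of the 42 genes, 36 have an entry, with 53 promoters in all, and 34 of those 36 genes hold either motif in at least 1 promoter. By promoter the shares are 79.2% for the list (42 of 53), 56.6% for promoters of genes tested at 24 h and 38.6% for all 32851 promoters. ACGTG occurs in 50.9% of the list's promoters, against 21.9% and 16.6%, and GCGTG in 52.8%, against 45.4% and 28.2%. Many members are textbook HIF targets, for which such motifs were part of the evidence. A match is a string of letters and no proof of binding.

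The genes were also described by how their coding sequence is divided into exons. Exon junctions are known to keep m6A away from nearby sequence, so that the mark gathers in long exons and around stop codons. Coding junctions per kilobase of coding sequence were available for 39 of the 40 genes, all but Aldoa, whose name belongs to 2 annotated genes. The 7 genes among the 25% of all genes with the lowest density (up to 3.85 junctions per kb in the 24 h table) were Ppp1r3c (1.05), Ddit4 (1.46), Ier3 (2.08), Bhlhe40 (3.24), Egln1 (3.33), Stc2 (3.38) and Adm (3.62). Of these 7, Adm, Bhlhe40, Ppp1r3c, Ddit4 and Ier3 were listed for their values at 1 and 24 h, so the counts at those times follow from the choice and are no test. At 1 h, 6 of the 7 were called lower, against 1 of the other 32, Pfkfb3 (8.97 junctions per kb). At 24 h, 5 of the 7 were called higher, against 1 of 32, Slc2a3 (6.09). The other 2 are Egln1, not called, and Stc2, called lower at 1 h.

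Over all genes, the 25% with the lowest density had a median near 0 at 1 h and above 0 later. The medians were -0.02, 0.34 and 0.32 at 1, 8 and 24 h, and 0.548%, 1.08% and 1.69% of it was called lower while 0.0365%, 12.7% and 13.5% was called higher. In the 25% with the highest density the medians were 0.03, -0.12 and -0.12. At 8 h the 7 genes had a median of 0.39, and 1 of them was called higher, where 12.7% of all genes in that 25% were. Members were listed with earlier results of these data known, and the 0 h libraries are shared, so this is no independent check. Spearman's rho between density and ratio was 0.09, -0.47 and -0.40 over 10950, 11092 and 11089 genes tested at 1, 8 and 24 h, and -0.38 over the 39 genes at 8 h. For the longest internal exon it was -0.17, 0.21 and 0.16 over all genes with such an exon, and 0.06 over 37 of the listed genes at 8 h. These correlations run across genes that share the same libraries and are descriptions without a test.

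**Figure D5:**
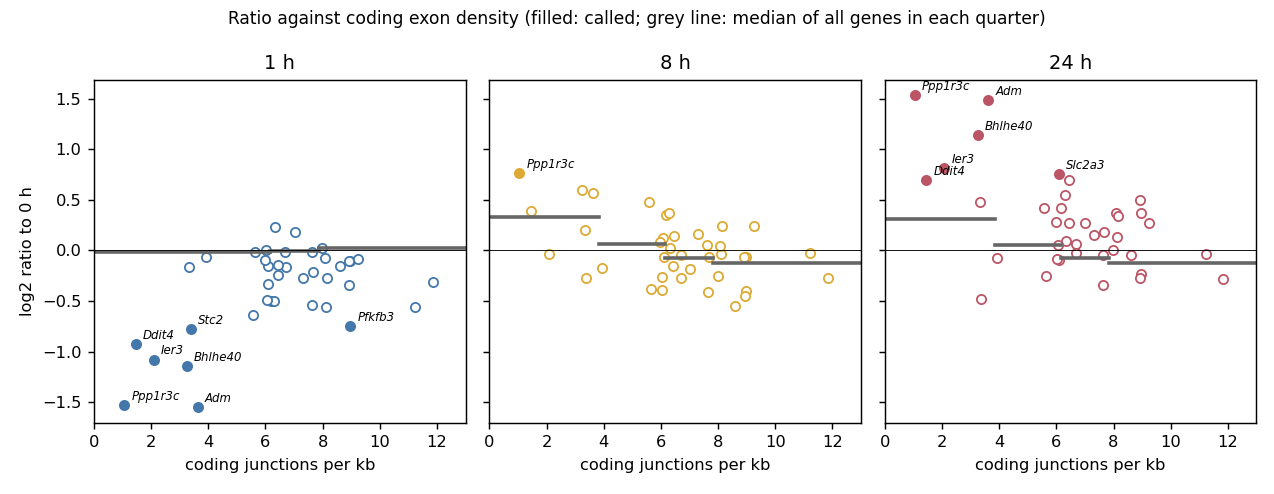
Log2 ratio of 39 genes against coding junctions per kilobase at 1, 8 and 24 h; filled points are called and grey lines are the median of all genes in each 25% of genes by that density. The leftmost grey line is at -0.02, 0.34 and 0.32, and 5 of the 7 genes in its range were listed for their values at 1 and 24 h.

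Cell type markers moved at 24 h beside these genes. The summed FPKM of the 7 retinal progenitor markers went from 559 to 748, with Rax and Lhx2 called higher, and that of the 6 pluripotent cell markers from 288 to 191, with Dppa5a called lower. The 5 markers of pigment epithelium summed to 60.2 FPKM at 0 h and 97.3 at 24 h, with none called, and the 4 endothelial markers to 4.47 and 2.98. At 1 h, when most of these genes stood below 0, the progenitor sum was 553 before and 596 after treatment and the pluripotent sum 283 and 307, with none called. The part of a change in cell composition in the results was not tested.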

How the data were processed

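Polyadenylated RNA of 8 samples in 4 groups was sequenced, and groups were taken from the sample titles. The authors used Cufflinks 2.2.1 and Cuffdiff on mm10, per the submitters' processing notes. The authors deposited 3 pairs of tables, each setting 0 h against 1, 8 or 24 h. Per the file headers, each pair gives FPKM, its bounds and a quality status in one table, and estimated counts and their variance in another. There is 1 column per condition, which combines the replicates, so no test across samples was made. Strandedness, the level of the bounds and the handling of reads with several matches are not given in the sources used here. The distance from value to bound had a median of 23.1% to 24.6% of the 0 h value for the genes described.

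From these, log2((FPKM + 0.1)/(FPKM at 0 h + 0.1)) was computed within each table, which understates changes of low genes. Loci needed status OK and at least 1 FPKM in 1 of the conditions, and were called at 1.5-fold with bounds apart. This rule gives no p-value. It was run on simulated tables with planted changes larger than 1.5-fold and spread taken from the deposited variances. That run says nothing about changes near the limit or about the spread between samples. Of loci sharing a name, the one with the higher 0 h FPKM was used. Gene models came from GENCODE M21 (GRCm38), with 1 transcript per gene, and promoters from RefSeq. The members and all gene lists were chosen with earlier results of these data known. Members called at any time are named with full values, and the others by role. Python 3.11.15, pandas 2.3.3 and NumPy 2.4.6 were used.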

Additional observations from a re-analysis of the deposited data

How the results depend on the processing

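Raising the limit from 1.5-fold to 2-fold changed the number of genes called from 7 to 4 at 1 h (ending the calls of Ddit4, Pfkfb3 and Stc2), from 1 to 0 at 8 h (Ppp1r3c) and from 6 to 3 at 24 h (Ddit4, Ier3 and Slc2a3). Over all loci the 2-fold limit called 0.285%, 1.57% and 2.14% at 1, 8 and 24 h. Leaving out the bounds gave 2 at 8 h, where Bhlhe40 was added, a setting that called 13.7% of all loci. Other alternatives (pseudocounts of 1 and 0.01, no filter or 5 FPKM, estimated counts, centring, loci without overlap, bounds alone, the other Bnip3 locus) kept each number within 1.5 times. The median log2 ratio ranged from -0.25 to -0.19 at 1 h, from -0.06 to -0.03 at 8 h and from 0.14 to 0.23 at 24 h. For the 8 called genes only 4 of these settings change a ratio (both pseudocounts, estimated counts and centring). The 96 values they gave changed no call, with 0 changes of sign. Some uncalled ratios at 8 h did cross the 1.5-fold limit, a log2 ratio of 0.585. Bhlhe40 went from 0.597 to 0.555 with 1 FPKM added, and Adm from 0.568 to 0.589 with 0.01 FPKM added. No paired analysis was possible because the replicates are pooled in the deposited columns, and for the same reason no replicate could be left out. With a pseudocount of 1 FPKM the 1 h ratio of Adm moved from -1.55 to -0.89. The spread between samples cannot be seen, and the low levels of Adm and Car9 limit their precision. The choice of the other Bnip3 locus was added after seeing the data.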
